A study of Mus musculus with 20 samples.

Results

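Colorectal tumors were compared with adjacent non-tumor tissue in mice that lack Erbb2 in the intestinal epithelium. The comparison uses the 10 libraries whose titles name Erbb2-deficient ApcMin tumor (5 libraries) or Erbb2-deficient ApcMin adjacent normal tissue (5 libraries), out of 20 libraries in the series. The animals were C57BL/6J mice aged 100 days that carried ApcMin/+, 2 floxed copies of Erbb2 (the Erbb2tm1Mll allele, Erbb2f/f) and the cre transgene Tg(Vil1-cre). The other 10 libraries came from littermate controls with ApcMin/+ and Erbb2f/f and no cre. They are used below for the test of whether the tumor change differs between genotypes. They also give control values of some rows and enter alternative fits, such as that of all 20 libraries. The Villin promoter drives cre in intestinal epithelial cells, so muscle, fibroblasts, vessels and immune cells in the same piece of tissue keep Erbb2, and both genotypes carry the Apc mutation and the floxed allele. The labels call the adjacent tissue epithelium, and its markers are checked below. Strand-specific messenger RNA libraries were made from total RNA of the tumors and of the adjacent tissue.

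Apc is the scaffold of the complex that marks beta-catenin for destruction. When its remaining copy is lost in a crypt cell, beta-catenin stays in the nucleus with TCF/LEF factors and switches on Wnt target genes, among them secreted inhibitors that act back on the pathway. Erbb2 is a receptor tyrosine kinase that binds no ligand itself and pairs with Egfr or Erbb3, passing signals to the MAPK and PI3K pathways. The normal colon is lined by absorptive colonocytes, mucus-making goblet cells and hormone-making enteroendocrine cells above a crypt base of stem cells, and a layer of smooth muscle lies beneath it.

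Each value below belongs to a row of the deposited count table, and a row is named by a gene symbol. Gene rows took between 1193918 and 1944309 counts per library (median 1264556), which was 2.51% to 3.45% of the reads in a file. Rows of epithelial markers had counts in every library, at 113, 156, 70.0, 159 and 103 normalized CPM for the adhesion protein Epcam in tumors and 77.3, 65.8, 139.6, 122 and 50.2 in adjacent tissue, while the row of the abundant enzyme Gapdh had 0 to 12 counts in a library. Rows of this table appear to hold reads from the strand opposite to the named gene (the mitochondrial rows below give the values), and the strand setting of the counting is not given in the sources used here. Each row is therefore read with its partner, meaning a gene whose exons overlap the row's exons on the opposite strand, or with its neighbour, meaning an opposite-strand gene that comes within 1000 bases. No row is taken here as the messenger RNA level of the gene that names it. Normalized CPM are the counts of a row scaled to a common library total over the tested rows after TMM scaling. They were not divided by gene length, so levels are compared between libraries and not between genes.

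The row of the targeted gene was low everywhere. The Erbb2 row held 4.85, 6.34, 2.98, 8.75 and 0.767 normalized CPM in tumors 1 to 5 and 13.5, 10.5, 18.0, 9.54 and 3.64 in adjacent libraries 1 to 5. The 2 groups overlap, and tumor 5 is the lowest library. Its log2 fold change, tumor minus adjacent, was -1.21 ± 0.50 (SE), with an adjusted p of 0.0713 in edgeR's quasi-likelihood test, so it was not called. It was called in 4 of 20 alternative analyses, 2 of which leave out only tumor 4 (adjusted p = 0.0440) or only adjacent 5 (adjusted p = 0.0296) in edgeR. In raw counts the row held 1 to 11 in Erbb2-deficient tumors, 5 to 22 in Erbb2-deficient adjacent tissue, 1 to 10 in control tumors and 3 to 12 in control adjacent tissue. Its partner Mien1, which overlaps it tail to tail, had a row at 160.1, 173, 132, 100.2 and 19.2 normalized CPM in tumors and 197, 152, 447, 295 and 76.5 in adjacent tissue (-0.998 ± 0.51, adjusted p = 0.142 in edgeR), with tumor 5 far below the other 4 tumors. That row was called in 2 of 20 alternative analyses, among them the one without tumor 5 and adjacent 5 (adjusted p = 0.0395 in edgeR). With counts this low and perhaps from the other strand, the Erbb2 row does not check the deletion. The rows of Egfr, Apc and Vil1 were not called (log2 fold changes -0.69, 0.53 and -0.20), and that of Erbb3 was not tested at a mean of 9.1 counts.

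Tumors and adjacent tissue differed in a large part of the table. After the filter on low counts 6202 rows were tested. In edgeR 1067 rows rose in tumors (17.2%) and 1231 fell (19.8%), 37.1% in all at an adjusted p under 0.05. The 5 tumor and 5 adjacent libraries did not overlap in 1607 rows (25.9%), with tumors higher in 784 (12.6%) and lower in 823 (13.3%). The median log2 fold change over all tested rows was -0.03. Of the called rows 730 rose and 935 fell by at least 2-fold, and 77 rose and 37 fell by at least 16-fold. The first principal component of the 10 libraries separated tumors from adjacent tissue (62.9% of the variance), with tumor 5 nearest to the adjacent libraries, and the second (14.2%) set adjacent 3 and 4 apart from adjacent 1, 2 and 5. The Tsix row, opposite the X-inactivation gene Xist, stood at 1185 normalized CPM in tumor 5 and 1083 in adjacent 5 and at 0 to 1.59 in the other 8 libraries.

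**Figure D1:**
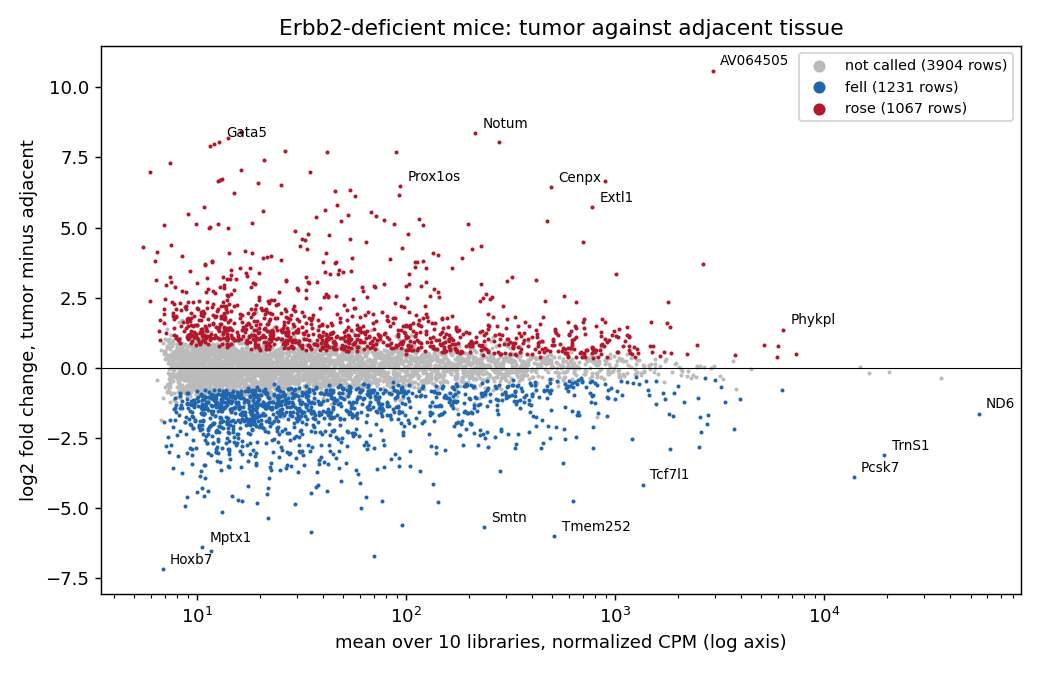
Log2 fold change (tumor minus adjacent) of the 6202 tested rows against their mean normalized CPM over the 10 libraries on a log axis, with called rises in red, called falls in blue and rows not called in grey. The rows with the largest rises reach higher (AV064505 at 10.58) than the lowest falls with counts in both groups reach down (A930016O22Rik at -6.69), and the most abundant called rows are the mitochondrial ND6 and TrnS1 and the row Pcsk7, all lower in tumors.

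Promoters are shown for chosen genes that hold a match to a motif, and not for all genes at the ends of the scale. The Wnt pathway acts through TCF/LEF, and smooth muscle genes are classically driven through the CArG box bound by serum response factor. The sequences are RefSeq windows on GRCm38.p6, 300 bases around a gene start, written 5′ to 3′ on the gene's strand, with the first match to the motif in capitals. For TCF/LEF the letters CTTTGAT or CTTTGTT were searched on both strands. Mmp7 is the partner of the row that rose most (chr9:7691840-7692139, plus strand), and Tbx3os1 is among the 12 largest rises (chr5:119671459-119671758, minus strand). Myl9 is a smooth muscle gene whose row fell (chr2:156775214-156775513, plus strand) but is not among the 12 largest falls.
Mmp7: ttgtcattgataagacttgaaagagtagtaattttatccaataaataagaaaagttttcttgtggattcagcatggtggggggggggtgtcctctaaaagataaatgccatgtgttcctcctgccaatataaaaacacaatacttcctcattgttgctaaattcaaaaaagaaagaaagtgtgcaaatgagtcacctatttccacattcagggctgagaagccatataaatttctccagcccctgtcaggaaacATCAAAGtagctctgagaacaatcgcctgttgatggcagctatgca
Tbx3os1: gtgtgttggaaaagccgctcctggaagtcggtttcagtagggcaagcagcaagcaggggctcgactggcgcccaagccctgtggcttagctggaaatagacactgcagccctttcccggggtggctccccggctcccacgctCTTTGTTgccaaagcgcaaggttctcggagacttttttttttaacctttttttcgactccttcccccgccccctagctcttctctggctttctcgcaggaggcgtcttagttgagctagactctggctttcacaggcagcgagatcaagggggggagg
Myl9: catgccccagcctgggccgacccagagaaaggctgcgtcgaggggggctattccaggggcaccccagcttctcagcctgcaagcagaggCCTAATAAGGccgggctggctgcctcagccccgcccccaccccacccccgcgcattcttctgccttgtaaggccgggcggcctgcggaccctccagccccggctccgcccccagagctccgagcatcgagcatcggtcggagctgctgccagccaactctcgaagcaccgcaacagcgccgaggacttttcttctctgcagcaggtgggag
The Mmp7 match lies on the reverse strand and begins at base 255 of the window, the Tbx3os1 match begins at base 143, and the CArG box of Myl9 begins at base 90. A match describes letters and not a bound site. Of 27025 genes with a promoter window, 10.6% held a TCF/LEF match and 1.81% a CArG box. Of the Wnt list 0 of 9 members that rose and had a window held a TCF/LEF match. Of the smooth muscle list 1 of 9 members that fell and had a window held a CArG box, the Myl9 shown. The window is that of the gene naming a row, while the reads of a row appear to come from the opposite strand. These shares may thus describe genes other than those the reads came from. Among all tested rows with a window, a TCF/LEF match stood in 9.59% of those that rose, 7.40% of those that fell and 7.59% of those not called. A CArG box stood in 1.62%, 1.12% and 1.61% of them, and in 2 of the 9 Wnt members that rose and have a window, Lef1 and Tcf7.

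The largest rise was the row AV064505, whose partner is Mmp7, the secreted metalloprotease matrilysin that Paneth cells use to activate defensins and that intestinal adenomas make. The row held 3579, 2542, 2539.6, 7985 and 12681 normalized CPM in tumors 1 to 5 and 4.91, 2.63, 0.816, 2.38 and 7.28 in adjacent 1 to 5. Every tumor was far above every adjacent library, and tumors 4 and 5 were highest. The log2 fold change was 10.58 ± 0.67 (SE, adjusted p = 2.07e-07 in edgeR). The row named Mmp7 itself, too low to be tested, had 9, 8, 2, 28 and 31 counts in tumors and 0 counts in all 5 adjacent libraries. The same 2 tumors, 4 and 5, were high in both rows of this overlapping pair.

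Notum, an enzyme that strips the lipid from Wnt proteins and so disarms them, had the next largest rise under the naming rule. Its row held 467, 338, 636, 324 and 369 normalized CPM in tumors and 1.84, 0.878, 0, 3.18 and 0 in adjacent tissue, a log2 fold change of 8.36 ± 0.48 (SE, adjusted p = 5.10e-08 in edgeR). The groups are far apart, and 2 adjacent libraries had no count. Its partners are Notumos and Myadml2os, 2 antisense genes.

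Of the 12 largest rises 4 lay at loci of transcription factors, a grouping made after the values were seen and not tested. Gata5os, the row opposite the endoderm factor Gata5, held 231, 147, 149.7, 154 and 203 normalized CPM in tumors and 0, 0.878, 0.816, 0.795 and 1.46 in adjacent tissue (7.69 ± 0.39, SE, adjusted p = 1.87e-08 in edgeR). The Gata5 row itself had 27.5, 26.2, 14.2, 14.3 and 44.5 in tumors and no count in any adjacent library, which is at least 55.9-fold higher against a floor of 3 counts over the 5 adjacent libraries. Both rows of this pair thus separate the groups completely. Prox1os, opposite the homeobox factor Prox1, held 225, 103, 309, 136 and 149 against 0, 1.76, 1.63, 5.56 and 1.46 (6.47 ± 0.54, SE). The Prox1 row had 50.1, 27.8, 36.5, 21.5 and 26.1 in tumors and no count in adjacent tissue, at least 71.4-fold higher against the same floor. Tbx3os1, opposite the T-box factor Tbx3, held 245, 173, 436, 172 and 99.6 against 0, 1.76, 13.1, 9.54 and 4.37 (5.31 ± 0.64, SE), with tumor 5 lowest and tumor 3 highest. Foxl1, a forkhead factor best known from the mesenchymal cells around the crypt, held 62.3, 89.6, 142, 63.7 and 42.9 against 0.613, 0, 4.08, 0 and 2.91 (5.64 ± 0.59, SE).

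The rest of the 12 largest rises were the rows Lyz1 (41.8 normalized CPM in tumors on average, 0.146 adjacent), Cenpx (976 and 11.3), Spock2 (112 and 1.57), Extl1 (1520.4 and 28.6), Mir1905 (133 and 2.85) and Nkd1 (72.3 and 1.62). Lyz1 encodes the Paneth cell lysozyme, Spock2 a matrix proteoglycan, Extl1 an enzyme of heparan sulfate synthesis and Nkd1 an inhibitor of Dishevelled. Cenpx has the neighbour Lrrc45, and Mir1905 has the partner Mex3a, an RNA-binding protein of intestinal stem cells. Lyz1 varied most, at 29.1, 20.6, 10.4, 60.5 and 88.2 in tumors, again highest in tumors 4 and 5. All 12 rows rose with adjusted p between 1.87e-08 and 3.47e-05 in edgeR. In the control mice all 12 had a higher fitted level in tumors as well, and none passed edgeR's test of a genotype difference (smallest unadjusted p = 0.0710).

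**Figure D2:**
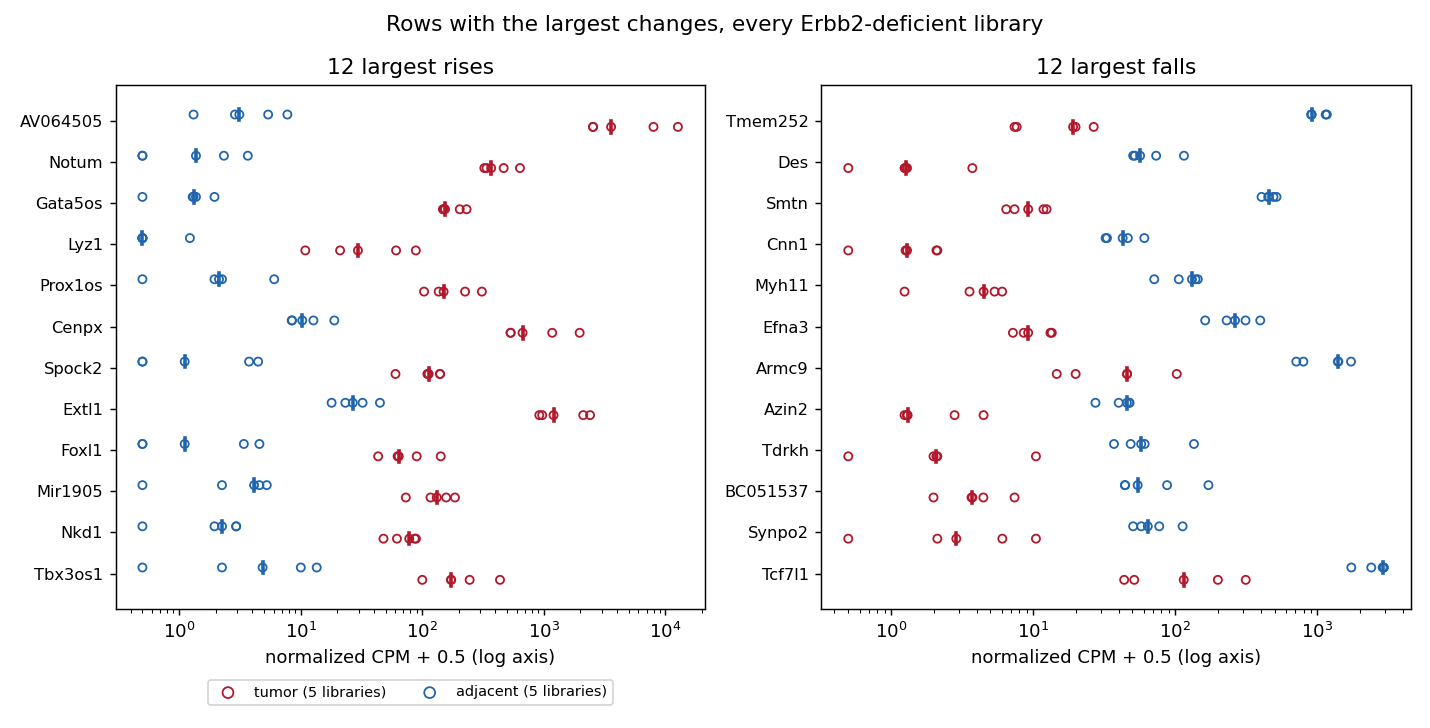
Normalized CPM plus 0.5 on a log axis for the 12 largest rises (left) and the 12 largest falls (right), one open circle per Erbb2-deficient library and a bar at the median of each group of 5. In every row shown the tumor and adjacent libraries form 2 clouds that do not overlap, which the rule for choosing these rows required.

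Of 14 tested members of the list of Wnt targets and feedback inhibitors, 11 rose, none fell and 3 were not called, beside a background of 17.2% for rises. The median log2 fold change of the 14 was 3.64. Dkk2, a secreted Wnt modulator, held 17.0, 22.2, 34.3, 27.8 and 26.8 normalized CPM in tumors and 0, 0, 0, 0.795 and 0 in adjacent tissue (6.70 ± 0.56, SE, adjusted p = 1.43e-06 in edgeR), a single count in the 5 adjacent libraries. Nkd1 held 61.5, 77.7, 86.4, 88.3 and 47.5 against 2.45, 1.76, 2.45, 0 and 1.46 (5.37 ± 0.41, SE). Sox4, a factor of progenitor cells, held 72.8, 95.2, 84.9, 103 and 81.3 against 6.13, 6.15, 6.53, 12.7 and 7.28 (3.48 ± 0.27, SE, adjusted p = 7.85e-07 in edgeR), and here adjacent 4 was the highest of its group. The groups of all 3 rows were separate. Restricted to the 8 tested members with no exon on the opposite strand, 6 rose and the median was 1.51. The 3 rows not called were Ccnd1 (-0.03), Ephb2 (0.63) and Cldn2 (0.62). Cyclin D1 shows the strand question in one locus, since the Ccnd1 row was not called while LTO1, the row whose partner is Ccnd1, held 2926, 3129, 2722, 2769.6 and 1811 in tumors and 1087, 1003, 774, 879.8 and 1167 in adjacent tissue (1.44 ± 0.16, SE, adjusted p = 1.73e-05 in edgeR). Tumor 5 was the lowest tumor there and still above every adjacent library. Summed over the list, tumors had 1288 to 2041 normalized CPM and adjacent libraries 433 to 607.

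Few rows of the crypt stem cell list could be tested. Of 4 tested members 2 rose, beside 17.2% of all rows. They were the transporter Slc12a2 (1.25 ± 0.37, SE, adjusted p = 0.0170 in edgeR) and the crypt factor Sox9 (1.06 ± 0.38, SE, adjusted p = 0.0430). Rnf32 (0.42) and Lrig1 (-0.12) were not called. Both calls were lost without the libraries of number 5, and that of Sox9 also without any 1 of tumors 2 or 4 or of adjacent 1, 2, 3 or 5. Both were lost against a 1.5-fold change and in the fit of all 20 libraries too. In that fit 0 of 6 tested members of the list rose and 1 fell. Lgr5 was not tested, with 2, 1, 5, 1 and 4 counts in tumors and 0, 1, 0, 0 and 1 in adjacent tissue. The 1 tested row opposite a list member, Slc25a26, was not called at a log2 fold change of -1.11. It was called lower in 7 of 20 alternative analyses, DESeq2 among them.

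Among the matrix metalloproteases 1 of 4 tested members rose, beside 17.2% of all rows. Mmp14, the membrane-bound collagenase MT1-MMP, held 55.0, 62.6, 50.7, 58.9 and 46.8 normalized CPM in tumors and 35.0, 21.1, 10.6, 10.3 and 28.4 in adjacent tissue (1.36 ± 0.32, SE, adjusted p = 0.00441 in edgeR). Mmp2 (0.75), Mmp15 (0.47) and Adamts4 (0.40) were not called. Without a count filter 6 of 12 metalloprotease members rose and 0 fell, beside 1813 rises among 25532 rows. The members that the filter had left out had mean counts of at most 7.8. Of the Paneth-type and antimicrobial list, the 2 tested members moved apart: Lyz1 rose, and Saa1, an acute-phase protein of the epithelium, fell from 96.9, 69.4, 167, 122 and 99.0 in adjacent tissue to 1.62, 19.0, 8.94, 39.8 and 19.9 in tumors (-2.63 ± 0.51, SE, adjusted p = 0.00122 in edgeR), with no overlap. Without a count filter 11 of 17 members of this list rose and 2 fell, beside 1813 rises and 2050 falls among 25532 rows. The members added there had mean counts of at most 12.3. With 4 groups less control tumors 2 and 3, 4 of 6 rose and 2 fell, and with all 20 libraries 1 of 4 rose and 2 fell. The keratin Krt7 was the 1 of 3 tested members of the fetal-like list that rose, beside 17.2% of all rows. It held 12.9, 32.5, 14.9, 26.3 and 30.7 against 5.52, 2.63, 4.08, 7.95 and 1.46 (2.40 ± 0.42, SE, adjusted p = 5.17e-04 in edgeR). Clu (1.04 ± 0.66), a marker of the regenerating crypt, and Ccn2 (-0.27 ± 0.35) of the same list overlapped between groups and were not called. Clu was called higher without a count filter and without adjacent 3, at 1.79, and the omission made 2 of 3 members. The row Gm19610, whose partner is the Egfr ligand Ereg, held 56.6, 72.2, 107, 115 and 23.8 in tumors and 1.84, 4.39, 11.4, 15.9 and 2.18 in adjacent tissue (3.40 ± 0.56, SE, adjusted p = 3.87e-04 in edgeR), with tumor 5 again the lowest tumor. Gm15270, the row opposite Ccn2, rose as well (1.74 ± 0.56, SE, adjusted p = 0.0255 in edgeR), with overlapping groups and a call lost without tumor 2 or without adjacent 2 or 5. That call was also lost in the fit of all 20 libraries.

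Of 11 tested fibroblast and matrix members 9 rose, beside 17.2% of all rows, and none fell, with a median log2 fold change of 1.62. The count was 6 of 11 without tumor 2, and 6 of 12 without adjacent 2 or without adjacent 5. It was 6 of 11 in the fit of all 20 libraries too. Col1a1, the main chain of type I collagen, held 41.2, 59.5, 24.6, 26.3 and 13.8 normalized CPM in tumors and 2.45, 1.76, 7.35, 8.74 and 0 in adjacent tissue (3.02 ± 0.59, SE, adjusted p = 0.00123 in edgeR). Col4a1, of basement membrane, whose partner is Col4a2, held 108, 123, 90.9, 107 and 33.7 against 7.97, 19.3, 32.7, 33.4 and 12.4 (2.14 ± 0.42, SE, adjusted p = 0.00118). In both rows tumor 5 is the lowest tumor, and for Col4a1 it only just clears adjacent 4. Mgp, an inhibitor of calcification made by stromal cells, rose by 2.06 ± 0.34 on the log2 scale and the collagen-binding Sparc by 2.0 ± 0.42. Col6a1 (-0.22) and Col6a2 (0.44) were not called. The summed list ran from 177 in tumor 5 to 570 in tumor 2 and from 72.1 to 211 in adjacent tissue, so tumor 5 lay inside the adjacent range. The rows opposite list members, 8030451A03Rik (partner Tnc) and Gm13372 (partner Col5a1), were not called. In bulk tissue more cells of a type and more RNA per cell cannot be told apart, and this holds for each cell type list here.

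Of 16 tested smooth muscle members 13 fell and none rose, beside a background of 19.8% for falls, and the median log2 fold change of -3.15 was the lowest of the lists with at least 1 tested member. Without tumor 3, 1 member rose. Smtn, the contractile protein smoothelin, held 11.3, 8.72, 5.96, 11.9 and 6.90 normalized CPM in tumors and 515, 450.3, 491, 455 and 404 in adjacent tissue (-5.68 ± 0.23, SE, adjusted p = 3.98e-09 in edgeR). Myh11, smooth muscle myosin, held 4.85, 5.55, 0.745, 3.98 and 3.07 against 131, 105, 144, 138 and 70.6 (-4.99 ± 0.38, SE). Des, the muscle intermediate filament desmin, held 3.23, 0, 0.745, 0.796 and 0.767 against 115, 72.9, 51.4, 50.1 and 56.1 (-5.86 ± 0.50, SE). Every adjacent library was far above every tumor in these 3 rows, and desmin was at or near 0 in tumors. Cnn1, calponin, and Synpo2, an actin-bundling protein, changed by -5.37 ± 0.43 and -4.17 ± 0.53 on the log2 scale. Of the 10 members with no exon on the opposite strand 9 fell, with a median of -3.15. The members not called were Mylk (-0.18), Synm (-0.60) and Pgm5 (0.998).

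Of 6 tested rows on the other strand of muscle genes 4 fell, beside 19.8% of all rows, and 2 were not called. Pcsk7, whose partners include Tagln, the smooth muscle actin-binding protein SM22, held 1987, 3036, 639.9, 1824 and 1192 normalized CPM in tumors and 20384, 21315, 34272, 29883 and 23804 in adjacent tissue (-3.90 ± 0.35, SE, adjusted p = 2.85e-06 in edgeR). It was the third most abundant of the rows that fell. The Tagln row went from 507, 541, 411, 399 and 486 in adjacent tissue to 213, 193, 161, 219 and 242 in tumors (-1.19 ± 0.16, SE), a smaller change on a lower level. A930016O22Rik, whose partner is the muscle creatine kinase Ckm, went from 161, 117, 202, 118 and 97.6 to 0.809, 3.96, 0.745, 0.796 and 0 (-6.69 ± 0.49, SE). Tmem252, the largest fall under the naming rule (-5.999 ± 0.33, SE, from 907, 905, 1165, 1144 and 910.2 to 18.6, 26.2, 19.4, 7.16 and 6.90), has the neighbour Pgm5, a member of the muscle list whose own row was not called. The summed muscle list was 1425 to 1763 normalized CPM in the tissue labelled adjacent epithelium and 270 to 378 in tumors. Rows of muscle genes thus held counts in the adjacent pieces, and their part in the other falls was not tested. Ttc23, whose partner is the intermediate filament gene Synm, also fell (-2.61 ± 0.36, SE).

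The remaining large falls were Efna3 (9.85 normalized CPM in tumors on average, 272 adjacent), Armc9 (45.2 and 1206), Azin2 (1.72 and 41.1), Tdrkh (2.93 and 67.4), BC051537 (3.75 and 79.8) and Tcf7l1 (144 and 2572). Efna3 is an ephrin, Azin2 a regulator of polyamine synthesis, and Tdrkh has the partner Oaz3, an antizyme of the same pathway. Tcf7l1 is the TCF member that mostly represses Wnt targets, and its partner is Gm15401. The Tcf7l1 row held 50.9, 114, 43.2, 199 and 313 in tumors and 2877, 2929, 1732, 2395 and 2929 in adjacent tissue (-4.16 ± 0.48, SE, adjusted p = 2.39e-05 in edgeR), with a wide gap between the groups. Tumor 5 was the highest tumor in Tcf7l1 and in Armc9, whose neighbour is Gm16341. In the control mice 11 of the 12 largest falls were also lower in tumors, the exception being BC051537.

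**Figure D3:**
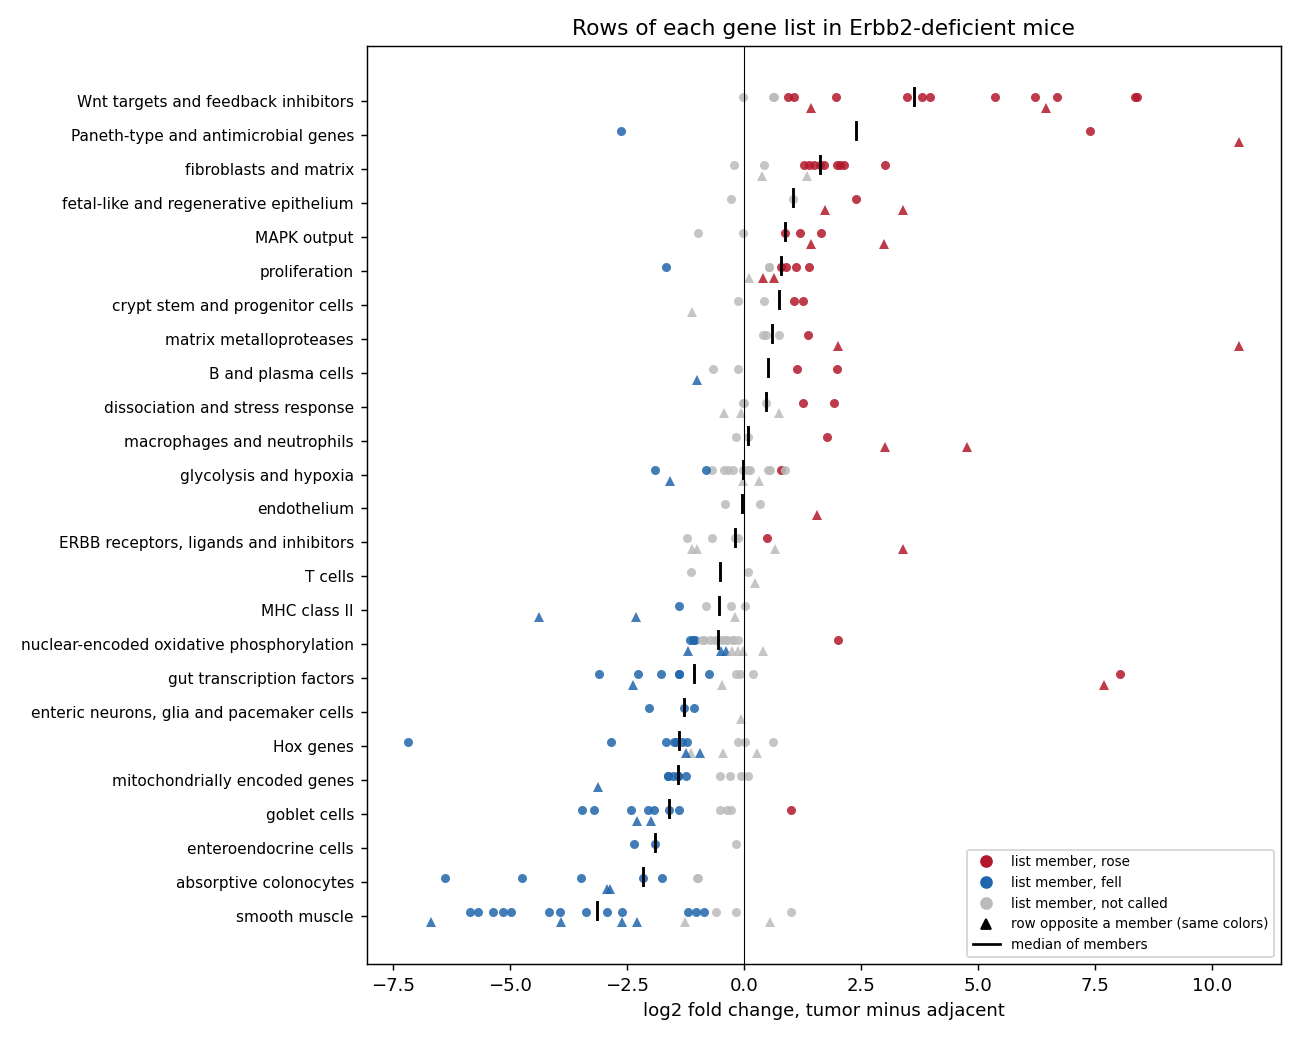
Log2 fold change (tumor minus adjacent) of the tested rows of each gene list with at least 1 tested member. Circles are list members, triangles are rows whose partner is a member, red and blue mark called rises and falls, grey rows were not called, and the black bar is the median of the members. Wnt targets (median 3.64) and fibroblast and matrix rows (median 1.62) lie right of 0, and goblet, colonocyte and smooth muscle rows (medians -1.61, -2.16 and -3.15) lie left.

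Among absorptive colonocyte genes 5 of 7 tested members fell, beside 19.8% of all rows, none rose and 2 were not called (median -2.16). Car4, the carbonic anhydrase of the surface membrane, held 0, 0.793, 0.745, 3.18 and 0.767 normalized CPM in tumors and 35.0, 18.4, 44.9, 42.1 and 18.2 in adjacent tissue (-4.74 ± 0.53, SE, adjusted p = 1.49e-05 in edgeR). Muc3, a membrane mucin of the brush border, held 6.47, 22.2, 1.49, 20.7 and 33.7 against 164, 176, 288, 219 and 111 (-3.49 ± 0.53, SE). Mptx1, a pentraxin of colon epithelium, had 1 count in the 5 tumors together and 17.8, 10.5, 24.5, 37.4 and 14.6 in adjacent tissue (-6.38 ± 0.68, SE), and Scnn1a, a subunit of the epithelial sodium channel, changed by -1.76 ± 0.29 on the log2 scale. These 4 rows do not overlap between groups. Slc13a2os, opposite the dicarboxylate carrier Slc13a2, went from 1047, 1118, 1333, 1788 and 1566 to 77.6, 104, 75.2, 341 and 339 (-2.87 ± 0.43, SE), and Rasl12, whose partner is the bile acid exporter subunit Slc51b, from 245, 220.3, 206, 245 and 430.3 to 13.7, 25.4, 13.4, 82.7 and 41.4 (-2.93 ± 0.45, SE). Krt20 (-0.98 ± 0.43) and Ceacam1 (-0.99 ± 0.43) were not called. Without tumor 5 the count was 8 of 9 tested members.

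Of 11 tested goblet cell members 7 fell (19.8% of all rows did), 1 rose (17.2% of all rows did) and 3 were not called, with a median of -1.61. Fcgbp, a mucus protein, held 7.28, 17.4, 3.72, 29.4 and 35.3 normalized CPM in tumors and 94.4, 107, 127, 91.4 and 81.6 in adjacent tissue (-2.42 ± 0.44, SE, adjusted p = 7.41e-04 in edgeR). Zg16, a lectin of the mucus layer, held 0.809, 3.17, 0, 10.3 and 7.67 against 58.3, 75.5, 35.1, 28.6 and 50.2 (-3.47 ± 0.57, SE), and Clca1, a mucus metalloprotease, held 2.43, 11.1, 0, 15.9 and 15.3 against 36.8, 98.3, 75.1, 148 and 59.0 (-3.21 ± 0.61, SE). In all 3 rows tumors 4 and 5 were the highest tumors and tumor 3 the lowest. Bcas1 changed by -2.06 ± 0.39 and the row on its other strand, Bcas1os2, by -1.98 ± 0.27 on the log2 scale. The 1 rise was Creb3l4, a membrane-bound transcription factor (0.997 ± 0.33, SE, adjusted p = 0.0289 in edgeR), whose groups overlap and whose call was lost without any 1 of tumors 3 or 4 or of adjacent 2 or 5. The summed list ran from 353 to 610 in tumors and from 736 to 1221 in adjacent tissue.

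Of 3 tested enteroendocrine members, Chga, a granule protein of hormone cells, fell from 19.6, 15.8, 14.7, 31.0 and 8.74 normalized CPM in adjacent tissue to 1.62, 3.96, 0, 1.59 and 9.96 in tumors (-2.36 ± 0.59, SE, adjusted p = 0.00613 in edgeR). The granule protein Chgb fell as well (-1.90 ± 0.60, SE, adjusted p = 0.0227 in edgeR), a call lost without tumor 1, without adjacent 3 or 4 and in the fit of all 20 libraries. The factor Pax6 was not called (-0.16), and of all rows 19.8% fell. Tumor 5 was above the lowest adjacent library in Chga, so the groups overlap. Glial Gfap (-2.03 ± 0.53, SE), the pacemaker cell channel Ano1 (-1.29 ± 0.42, SE) and the enteric neuron factor Phox2a (-1.06 ± 0.38, SE) fell with adjusted p of 0.00814, 0.0284 and 0.0423 in edgeR, and all 3 overlapped between groups. The Ano1 call was lost without any 1 of tumors 1 to 3 or without adjacent 4, and the Phox2a call without any 1 of tumors 1, 3, 4 and 5 or of adjacent 1, 2 and 5. The Gfap call was lost in the fits of 4 groups with or without control tumors 2 and 3. The partner of Phox2a is Inppl1. The summed list of neurons, glia and pacemaker cells was 73.5 to 160 in adjacent tissue and 23.1 to 60.6 in tumors, and the muscle list moved the same way. No tuft cell member was tested, and of 2 tested rows opposite list members 1 rose, beside 17.2% of all rows. Tsfm, the row opposite the tuft cell villin Avil, rose from 2.45, 3.51, 2.45, 0 and 2.18 to 16.2, 21.4, 8.19, 18.3 and 9.96 (2.75 ± 0.48, SE, adjusted p = 4.99e-04 in edgeR). The other row, Tssc4, was not called. Tssc4 was called lower in 3 of 20 alternative analyses, DESeq2 among them.

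**Figure D4:**
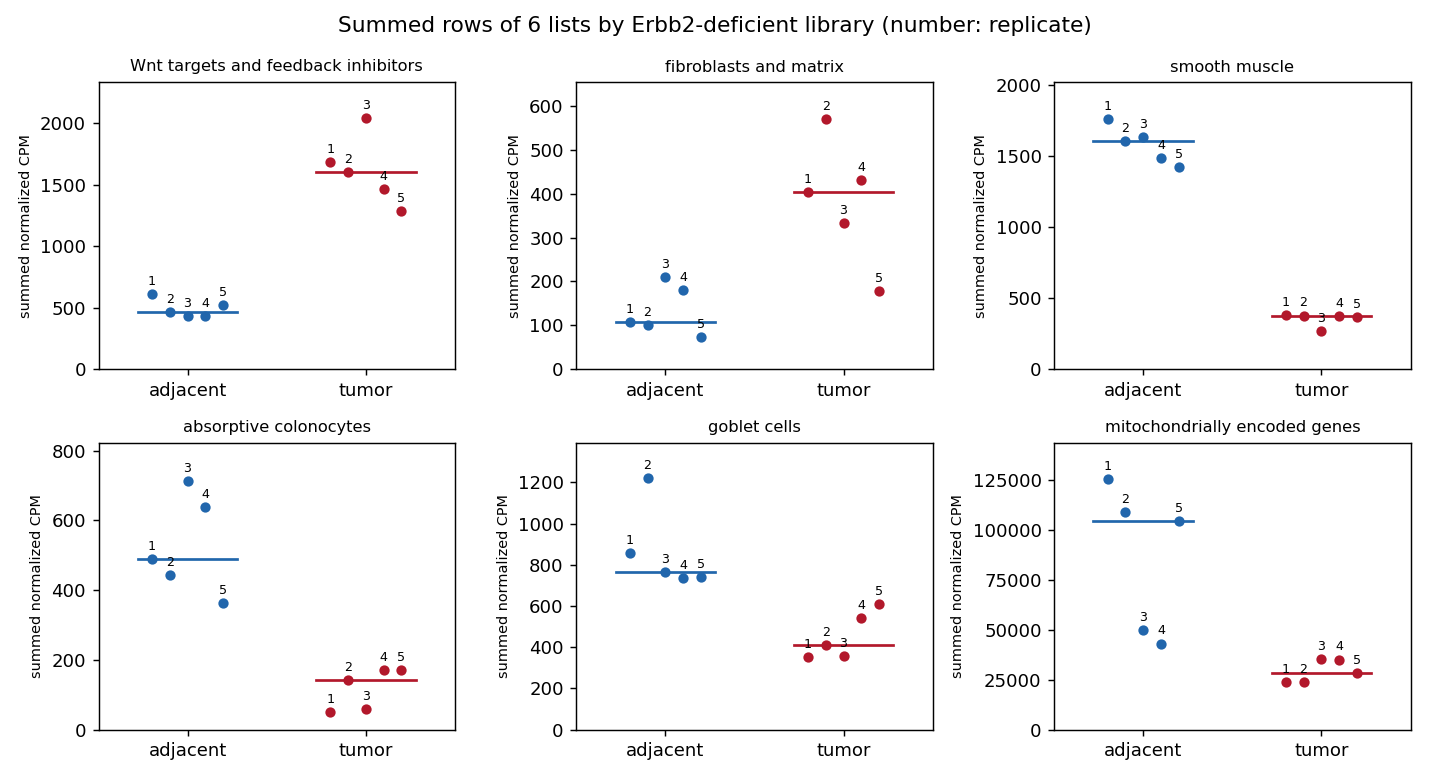
Summed normalized CPM of 6 gene lists in each of the 10 Erbb2-deficient libraries, numbered by replicate, with a line at the median of each group and the axis starting at 0. Tumors are above adjacent tissue for Wnt targets and below it for muscle, colonocyte, goblet and mitochondrial rows, while in the fibroblast panel tumor 5 (177) lies below adjacent 3 (211).

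Of 10 tested transcription factors of the gut epithelium 6 fell and 1 rose (median -1.07), beside 19.8% and 17.2% of all rows. Klf4, a factor of goblet and surface cells, held 10.5, 19.8, 18.6, 17.5 and 23.0 normalized CPM in tumors and 70.5, 72.0, 95.5, 118 and 75.0 in adjacent tissue (-2.26 ± 0.26, SE, adjusted p = 2.05e-05 in edgeR). Vdr, the vitamin D receptor, held 0, 4.76, 0, 1.59 and 5.37 against 22.7, 22.8, 15.5, 32.6 and 10.9 (-3.10 ± 0.60, SE), and Cdx1, a caudal-type intestinal factor, held 9.70, 7.93, 3.72, 17.5 and 15.3 against 42.3, 49.2, 33.5, 28.6 and 31.3 (-1.76 ± 0.35, SE). Each of these 3 rows separates the groups. Hnf4a, a nuclear receptor of the differentiated epithelium, was among the other falls (-1.40 ± 0.42, SE, adjusted p = 0.0174 in edgeR), with overlapping groups, and the rise was Gata5, described above.

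Hox genes, which set position along the gut, fell in 7 of 10 tested rows, beside 19.8% of all rows, and rose in none (median -1.39). Hoxb7 had no count in any tumor and 23.3, 13.2, 8.98, 11.9 and 10.9 normalized CPM in adjacent tissue, at least 30.3-fold lower against a floor of 3 counts over the 5 tumors. Hoxa11 held 819.9, 571, 579.6, 686 and 1676 in tumors and 2888, 2712, 1945, 2900.0 and 3254 in adjacent tissue (-1.66 ± 0.28, SE, adjusted p = 4.05e-04 in edgeR), and tumor 5 was the highest tumor there. In the fit of all 20 libraries the call of Hoxa11 was lost. Hoxa10 held 120.5, 158, 119.9, 138 and 171 against 543, 454, 299.6, 276 and 425 (-1.496 ± 0.21, SE). Hoxb3 changed by -2.84 ± 0.42 and its partner row Hoxb3os by -1.23 ± 0.26 on the log2 scale. None of these 5 rows overlapped between groups. The rows not called were Hoxa3 (-0.13), Hoxa9 (0.02) and Hoxd11 (0.62).

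Mitochondrial rows bear on the strand of the counted reads. Nearly all protein genes of the mitochondrial genome are transcribed from one strand, and ND6 lies alone on the light strand, opposite to ND5. The ND6 row held 21776, 22409, 31768, 31067 and 26392 normalized CPM in tumors and 122337, 104755, 46118, 39620.5 and 100995 in adjacent tissue, while the 12 heavy-strand protein rows summed to 1609 to 4048 in tumors and 2983 to 4195 in adjacent tissue. The 8 light-strand tRNA rows summed to 4471 to 6458 in tumors and 11896 to 62899 in adjacent tissue, and no heavy-strand tRNA row had more than 5 counts in any library. Light-strand rows thus held most mitochondrial counts.

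Of 11 tested mitochondrial members 7 fell, beside 19.8% of all rows, and none rose (median -1.41). ND6 changed by -1.63 ± 0.28 on the log2 scale (SE, adjusted p = 4.68e-04 in edgeR). TrnS1, whose partner is COX1, changed by -3.12 ± 0.43, from 50983, 53349, 14564, 8449.6 and 46373 to 3208, 3695, 3948, 4979.8 and 4157 normalized CPM, and TrnP by -2.19 ± 0.33. In all 3 rows adjacent 3 and 4 were well below adjacent 1, 2 and 5, and were still above every tumor. Of the heavy-strand rows ND2 (-1.52 ± 0.25), CYTB (-1.63 ± 0.28) and COX1 (-1.24 ± 0.26) fell with no overlap, and ND3, ND4, ND5 and ATP6 were not called. For nuclear genes of oxidative phosphorylation 3 of 15 tested members fell, a share near the 19.8% of all rows, 1 rose and 11 were not called (median -0.55). The members that fell were Cox5b (-1.14 ± 0.33), Ndufs3 (-1.08 ± 0.32) and Uqcrc1 (-1.05 ± 0.36), subunits of complexes IV, I and III, and the last was lost in 10 of 20 alternative analyses, among them the omission of any 1 of tumors 1 to 3 or adjacent 1, 2 or 5. The calls of Ndufs3 and Uqcrc1 were lost in the fit of all 20 libraries. With 13 tested members the glycolysis and hypoxia list had 1 rise, 2 falls and a median of -0.01. Neither count was above the share of all rows, 17.2% for rises and 19.8% for falls. The clearest member was the membrane carbonic anhydrase Car9, which went from 220.2, 306, 209.8, 301 and 352 to 52.6, 67.4, 42.5, 65.2 and 141 (-1.91 ± 0.30, SE, adjusted p = 2.42e-04 in edgeR). Hypoxia induces this gene, and the row fell in a list named for hypoxia. Its partner is Gm12454 and its neighbour Tpm2, a muscle tropomyosin. Hk1 (-0.81) fell and Pfkp (0.79) rose. The Hk1 call was lost without tumor 2 or 3 or without adjacent 5, and the Pfkp call without tumor 1, 2 or 4 or without adjacent 3.

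Proliferation rows were mixed. Of 7 tested members 4 rose and 1 fell, beside 17.2% and 19.8% of all rows, and 2 were not called (median 0.78). The cyclin Ccna2 held 516, 509.9, 493, 519 and 383 normalized CPM in tumors and 329, 255, 261, 217 and 344 in adjacent tissue (0.78 ± 0.17, SE, adjusted p = 0.00233 in edgeR), and the mitotic kinase Aurka held 98.6, 99.9, 109.5, 101 and 94.3 against 47.2, 43.9, 49.8, 66.8 and 61.2 (0.90 ± 0.20, SE, adjusted p = 0.00243). Neither overlapped between groups. Top2a (1.38) and Pcna (1.11) also rose, and without adjacent 1 the count of rises was 2 of 7. The Top2a call was lost without tumor 4, without adjacent 1 or 5 and in the fit of all 20 libraries. The fall was Plk1, at 1318, 1151, 682, 1135 and 2398 against 5132, 6674, 2265, 2671 and 4416 (-1.66 ± 0.34, SE, adjusted p = 0.00167). The groups of this row overlap through tumor 5 and adjacent 3, and its call was lost in the fit of all 20 libraries. It has the partner Gm44985 and the neighbour Ern2, an endoplasmic reticulum stress sensor of goblet cells. Mki67 (0.53) and Mcm7 (0.53) were not called.

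In the pathway that Erbb2 feeds, 3 of 5 tested members of the MAPK output list rose, beside 17.2% of all rows, and none fell (median 0.87). Fosl1, an AP-1 subunit, held 72.8, 60.3, 67.0, 49.3 and 38.3 normalized CPM in tumors and 22.1, 33.4, 22.9, 24.6 and 22.6 in adjacent tissue (1.20 ± 0.24, SE, adjusted p = 0.00156 in edgeR). Its partner row Ccdc85b moved further, from 92.6, 99.2, 14.7, 35.0 and 10.9 to 327, 637, 482, 408 and 179 (3.01 ± 0.56, SE). Phlda1 held 30.7, 51.5, 32.8, 59.7 and 30.7 against 9.81, 26.3, 8.16, 10.3 and 11.7 (1.64 ± 0.35, SE, adjusted p = 0.00210). The 3 rows separate the groups. The phosphatase Dusp4 rose too (0.87 ± 0.28, SE, adjusted p = 0.0246), a call lost in 10 of 20 alternative analyses, among them the omission of tumor 1 or 2 or of adjacent 1 or 5. Ccnd1 and Etv4 (-0.98) were not called, and Etv4 was called lower without adjacent 1 or without adjacent 3. Of 5 tested ERBB receptors, ligands and inhibitors only Nrg4, a ligand of Erbb4, was called, as a rise, beside 17.2% of all rows. Its row held 358, 342, 342, 332 and 282 against 242, 246, 243, 194 and 256 (0.49 ± 0.15, SE, adjusted p = 0.0206 in edgeR). The call was lost without tumor 1, with upper-quartile factors, without a count filter and against a 1.5-fold change. Egfr, Erbb2, Lrig1 and Adam17 lay between -1.21 and -0.12 on the log2 scale and were not called.

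Immune rows were sparse, since most defining markers were near 0: Ptprc, the pan-leukocyte marker CD45, had 0 to 5 counts in a library. The neutrophil-attracting chemokine Cxcl5 was the 1 of 3 tested macrophage and neutrophil members that rose, beside 17.2% of all rows. It held 41.2, 53.1, 45.4, 32.6 and 37.6 normalized CPM in tumors and 14.7, 11.4, 11.4, 11.1 and 11.7 in adjacent tissue (1.79 ± 0.23, SE, adjusted p = 5.32e-05 in edgeR). Gm14023, whose partner is the cytokine gene Il1a, held 28.3, 57.1, 152, 78.0 and 9.96 against 0, 0.878, 5.71, 2.38 and 2.91 (4.77 ± 0.77, SE), and Il1bos, opposite Il1b, held 17.8, 16.7, 25.3, 17.5 and 11.5 against 1.23, 0.878, 2.45, 2.38 and 3.64 (3.01 ± 0.38, SE). These 3 rows do not overlap between groups. The Il1a row (0.08) and Cd14 (-0.17) were not called. Of 4 tested members of the B and plasma cell list Sdc1 (2.0 ± 0.42, SE), which epithelium also makes, and Cxcr5 (1.14 ± 0.28, SE), whose partner is the beta-catenin cofactor Bcl9l, rose, beside 17.2% of all rows. Igha (-0.66) and Xbp1 (-0.12) were not called, nor were the 2 tested members of the T cell list and the 2 of the endothelium list. Itgae of the T cell list (-1.13) was called lower in 10 of 20 alternative analyses, DESeq2 and the omission of tumor 5 or of adjacent 1, 3 or 4 among them. Without adjacent 1, 3 or 4 the endothelium list had 2 rises of 4 tested members, and without tumor 1 or 5 or adjacent 2 or 5 it had 1, beside 17.2% of all rows in the main fit. Fpgs, whose partner is the endothelial receptor gene Eng, rose (1.57 ± 0.45, SE, adjusted p = 0.0142 in edgeR) with overlap through tumor 5. The row of the endoderm and endothelial factor Sox17, too low to be tested, had 54, 65, 66, 37 and 9 counts in tumors and 2, 0, 2, 1 and 0 in adjacent tissue. In MHC class II, H2-Ab1 fell (-1.38 ± 0.40, SE, adjusted p = 0.0155 in edgeR), beside 19.8% of all rows, and Cd74, Ciita and H2-DMa were not called. Dexi, the row opposite the class II activator Ciita, went from 26.4, 20.2, 53.9, 20.7 and 24.0 to 4.04, 5.55, 6.70, 5.57 and 6.90 (-2.31 ± 0.35, SE). The calls of H2-Ab1 and Dexi were lost in the fit of all 20 libraries.

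Of 5 tested genes of the response to tissue dissociation and stress, the AP-1 subunits Jun (1.92 ± 0.38, SE, adjusted p = 0.00123 in edgeR) and Junb (1.27 ± 0.34, SE, adjusted p = 0.0101 in edgeR) rose, beside 17.2% of all rows. Hsph1 (-0.03), Ier2 (0.00) and Ddit3 (0.48) were not called. Jun held 17.8, 41.2, 19.4, 33.4 and 34.5 normalized CPM in tumors and 4.91, 5.27, 13.9, 10.3 and 4.37 in adjacent tissue, a narrow separation. The part of tissue handling in other changes was not tested.

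The most abundant rows that rose are read through the other strand. Phykpl, whose partner is the RNA-binding protein Hnrnpab, held 9400.0, 9872, 9266, 10101 and 7144 normalized CPM in tumors and 3393, 3309, 3767, 3115 and 4272 in adjacent tissue (1.36 ± 0.13, SE, adjusted p = 3.38e-06 in edgeR). Gps2 (0.79 ± 0.14, SE) has the neighbour Eif5a, a translation factor. Snx22 (0.40 ± 0.12) has the partner Ppib and Rabepk (0.80 ± 0.26) the neighbour Hspa5, both protein-folding genes of the endoplasmic reticulum. Mfsd4a (0.45 ± 0.10) has the partner Elk4, and Eno3 (0.50 ± 0.14) the neighbour Gm12319. These 5 changes are under 2-fold, and the groups of Rabepk and Eno3 overlap. The call of Rabepk was lost without tumor 4 or without adjacent 2 or 5. Among abundant rows that fell, Nme7 (-1.23 ± 0.23, SE) has the partner Atp1b1, a sodium pump subunit, and held 1784, 2259, 1538, 1858 and 2554 against 6604, 4776, 2859.7, 3141 and 6062. The calls of Nme7, Impg1, Eno3, Snx22, Rabepk and Mfsd4a were lost in the fit of all 20 libraries. Impg1 changed by -0.68 ± 0.13 on the log2 scale, from 3602, 3613, 3904, 4019.8 and 4488 to 2250.3, 2799.9, 1853, 2473 and 2892, with a small gap between the groups.

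Calls were found in every class of row. Of 2913 tested rows with an exon partner 37.2% were called, of 1011 with only a neighbour 32.9%, of 1305 with neither 34.9%, and of 973 that matched no annotated gene 43.7%. Rows with an exon partner held 63.2% of the summed normalized CPM. Where both rows of an overlapping pair were tested (930 pairs), both were called in 145, only 1 in 394 and neither in 391. Of all tested rows 37.1% were called, and whether 145 is more than this rate alone gives was not tested. Of the 145 pairs both rows rose in 37, both fell in 65 and they went in opposite directions in 43. Pearson's r of the 2 log2 fold changes across pairs was 0.36, a description across loci of the same 10 libraries in which both rows share their depth. Pairs in which both rows rose include Gata5 with Gata5os, Prox1 with Prox1os and Fosl1 with Ccdc85b, and pairs in which both fell include Tagln with Pcsk7 and Bcas1 with Bcas1os2. Cxcr5 and Bcl9l moved apart (1.14 ± 0.28 and -1.01 ± 0.29), and the Bcl9l call was lost in the fit of all 20 libraries.

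**Figure D5:**
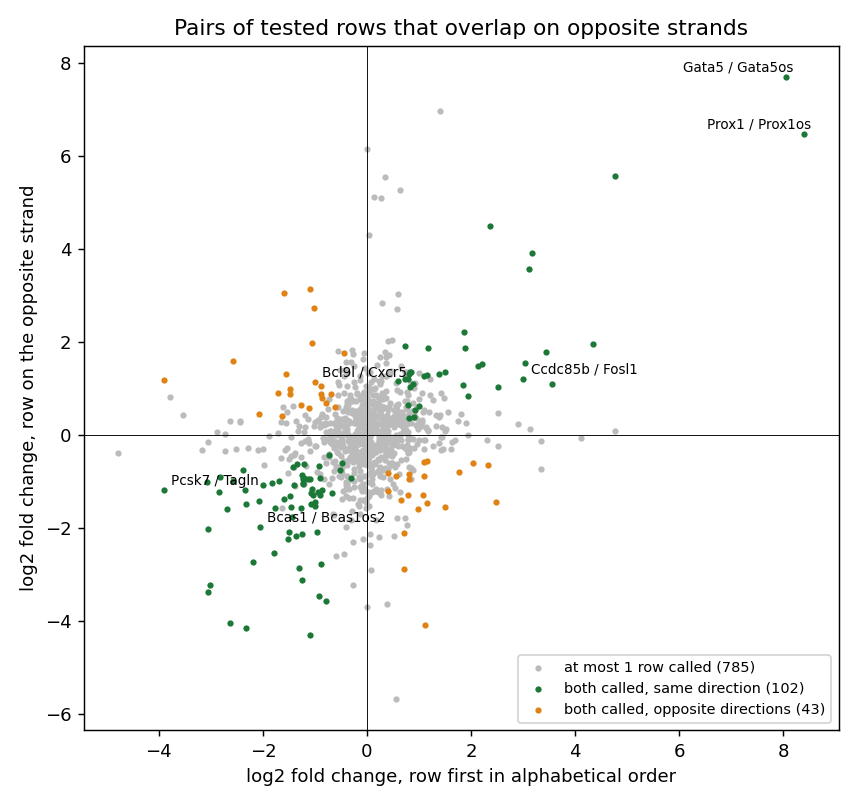
Log2 fold changes (tumor minus adjacent) of the 2 rows of each of 930 overlapping opposite-strand pairs, the row first in the alphabet on the horizontal axis. Green pairs have both rows called in the same direction, orange pairs both called in opposite directions, and grey pairs at most 1 row called. Gata5 with Gata5os and Prox1 with Prox1os lie at the upper right end.

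Whether the tumor change depends on Erbb2 was tested as the interaction of genotype and tissue in all 20 libraries. No row of 7119 passed in edgeR (0%), and 290 had an unadjusted p under 0.05. DESeq2 called 0 rows as well, with 257 at an unadjusted p under 0.05. In simulated data the same test found 2.13% of rows whose 2 changes differed 2-fold and 35.4% of those that differed 4-fold, so differences of 2-fold were mostly out of reach. A p above the threshold does not show that the genotypes responded alike.

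The 5 rows of smallest interaction p were Ttll11, Med22, Cavin1, A130010J15Rik and BC051537. Ttll11, a tubulin-modifying enzyme, held 57.4, 30.9, 53.6, 31.0 and 39.1 normalized CPM in Erbb2-deficient tumors and 8.59, 9.66, 11.4, 7.15 and 12.4 in adjacent tissue (2.10 ± 0.28, SE), and in control mice its means were 15.7 and 16.6. Its adjusted p for the interaction was 0.999984 in edgeR. Med22, whose neighbour is the ribosomal protein gene Rpl7a, fell in Erbb2-deficient mice (-1.54 ± 0.31, SE) and had means of 13.3 in control tumors and 10.3 in control adjacent tissue. Cavin1, a caveola protein, rose (1.05 ± 0.36, SE, adjusted p = 0.0350 in edgeR) with overlapping groups, beside control means of 9.95 and 17.0, and that call was lost in 8 of 20 alternative analyses, among them the omission of any 1 of tumors 1 to 4 or adjacent 1, 2 or 5. BC051537, whose partners are the class II genes H2-Pa and H2-Oa, and A130010J15Rik, whose partner is the lymphoid gene Traf3ip3, fell in Erbb2-deficient mice (-4.38 ± 0.49 and -3.54 ± 0.40, SE) and had higher means in control tumors (379.6 and 257) than in control adjacent tissue (59.2 and 39.6). Without control tumors 2 and 3, which stand apart from the other control tumors, the interaction of BC051537 moved from -7.08 to -1.45 on the log2 scale and that of A130010J15Rik from -6.26 to -1.63. The tumor against adjacent call of A130010J15Rik was lost in the fit of all 20 libraries.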

How the data were processed

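Each deposited file lists raw counts of 1 library by gene symbol. Trimmomatic, HISAT2 2.2.1, HTSeq 2.0.2, DESeq2 and build mm39 were used per the submitters' processing notes, and the strand setting is not given in the sources used here. The 5 summary rows that name no gene were left out, and no-feature reads made up 78.6% to 85.1% of a file.

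The 10 libraries were fitted in edgeR 4.0.16 (R 4.3.3, limma 3.58.1) with filterByExpr at a minimum count of 10, TMM factors and robust quasi-likelihood F tests of tumor against adjacent means, with Benjamini-Hochberg adjustment at 0.05 over all tested rows. The SE is the log2 fold change divided by the square root of F. The interaction used all 20 libraries. Nothing in the labels ties equal replicate numbers to 1 mouse, and tests rest on the spread among libraries.

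Partners and neighbours came from GENCODE M21 on another build (GRCm38), used for names and overlap only, and 35049 of 46329 symbols matched. Members and the 26 lists were chosen with earlier results of these data known. Named rows were the 12 largest called changes per direction without overlap at a mean of at least 20 CPM (predicted-gene, Rik and antigen receptor symbols skipped), the 6 most abundant called rows per direction, up to 4 members and 2 opposite rows of smallest p per list, rows of Erbb2, Mien1, Egfr, Erbb3, Apc and Vil1, and 5 interaction rows. Remaining list members are named where few did or did not pass, and Lgr5, Mmp7, Sox17, Tagln, Prox1 and Tsix were picked after their values were seen. Some rows that the rule names are not reported here. On simulated counts (6005 rows) 20.9% of 2-fold and 91.2% of 4-fold changes were recovered with 3 false calls. Alternatives covered scaling, filter, DESeq2 1.42.0, mitochondrial rows, a test against 1.5-fold, a replicate block and omitted libraries.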

Additional observations from a re-analysis of the deposited data

Results flagged for a closer look

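Each named row was looked at for a library that stood far from the other 4 of its group, by Dixon's gap ratio on log2 of normalized CPM plus 2. Of 310 groups of 5 libraries 25 held such a library. The usual rate of about 5% is for independent groups of normal values, and these rows share the same 10 libraries. The 25 are therefore not compared with it. In Lyz1, Dkk2 and Mptx1 the flag is a single count beside 0 in the rest of the group, where the ratio is always 1. Tumor 5 accounted for 9 of the 25, and no other tumor was among them.

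Tumor 5 was the lowest tumor in 8 rows. It held 59.8 normalized CPM for Spock2 beside 110 to 140 in tumors 1 to 4, 7144 for Phykpl beside 9266 to 10101, and 1811 for LTO1 beside 2722 to 3129. It held 383 for Ccna2 beside 493 to 519, 33.7 for Col4a1 beside 90.9 to 123, and 5.37 for Fpgs beside 17.5 to 23.8. For Mien1 it held 19.2 beside 100.2 to 173, and for Cavin1 9.20 beside 19.1 to 23.1. In the colonocyte row Mptx1 it held the single tumor count, 0.767 beside 0.

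Adjacent 3 was low for Ccn2 (8.16 beside 13.8 to 15.9), for Ciita (355 beside 417 to 442) and for Cxcr5 (17.1 beside 31.8 to 39.5), and high for Dexi, the row opposite Ciita (53.9 beside 20.2 to 26.4). Adjacent 4 was high for Sox4 (12.7 beside 6.13 to 7.28) and low for Nrg4 (194 beside 242 to 256) and Tsfm (0 beside 2.18 to 3.51). It held the single adjacent count of Dkk2 (0.795 beside 0). Adjacent 2 was high for the MAPK output rows Fosl1 (33.4 beside 22.1 to 24.6) and Phlda1 (26.3 beside 8.16 to 11.7) and low for Hk1 (14.9 beside 23.0 to 25.5). Adjacent 1 was low for Apc (1.84 beside 7.90 to 11.4) and Bcas1os2 (151 beside 276 to 339.6), and high for Cxcl5 (14.7 beside 11.1 to 11.7). Adjacent 5 was high for Rasl12 (430.3 beside 206 to 245) and held the single adjacent count of Lyz1 (0.728 beside 0).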

How the results depend on the processing

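The count of called rows was 2298 and ran from 2005 to 2500 when each library was left out in turn. It was 2297 with median-of-ratios factors, 2463 in DESeq2, 1959 with all 20 libraries and 2164 without tumor 5 and adjacent 5 (an omission chosen after seeing the data). Without a count filter it was 3863 of 25532 rows, and against a 1.5-fold change it was 1315. Of 119 named called rows 82 kept their call in all alternatives, 37 lost it in at least 1 and 0 reversed. A replicate block on the label numbers gave 2320 calls, 2151 of them shared. Deviations from the group means correlated between -0.0027 and 0.22 in same-numbered tumor and adjacent libraries. For unlike numbers the correlations ran from -0.21 to 0.29. The Tsix row was high only in tumor 5 and adjacent 5, whose deviations correlated at 0.22. Whether equal numbers mark 1 mouse is not given in the labels and was not tested.

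Sign changes occurred only in rows that were not called, and their cause was not tested. With upper-quartile factors the H2-DMa log2 fold change was -0.0031. Without tumor 5 and adjacent 5 it was -0.0155, the Hsph1 log2 fold change 0.130 and the Ccdc22 log2 fold change -0.0255, and with 4 groups less control tumors 2 and 3 Hsph1 was at 0.0255. Over the single omissions H2-DMa ran from -0.0809 to 0.143, Hsph1 from -0.320 to 0.308, Inppl1 from -0.151 to 0.0220, Il1a from -0.0711 to 0.237, Foxp3 from -0.0172 to 0.169 and Xbp1 from -0.319 to 0.0179.

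The interaction gave 0 calls in all 27 alternatives, with 178 to 1430 rows at an unadjusted p under 0.05. Low counts on gene rows limit what was seen. The median was 1264556 gene counts per library, out of 41320144 to 56434821 reads. Most rows were too low to test, and 20.9% of simulated 2-fold changes were found. Why so few reads fell on gene rows was not tested.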

Other observations

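A few rows outside the naming rule stood at the ends of the scale and were picked after their values were seen. Chrm2, a muscarinic receptor, held 23.9, 21.9, 11.4, 28.6 and 29.1 normalized CPM in adjacent tissue and 0, 0, 0, 0 and 0.767 in tumors (log2 fold change -6.52 ± 0.60, SE, adjusted p = 2.89e-06 in edgeR). Its partner is 9330158H04Rik. The kinase row Csnk1d, whose product phosphorylates Wnt pathway and clock proteins, held 2207, 1842, 2395, 1822 and 851 in tumors and 226, 206, 217, 135 and 120.1 in adjacent tissue (3.33 ± 0.28, SE, adjusted p = 1.46e-06 in edgeR), with tumor 5 lowest. Its partner is Gm28192 and its neighbour the lactate exporter Slc16a3. The chaperone row Hsp90ab1 held 249.9, 371, 222, 360.4 and 210.0 against 93.8, 103, 158, 134 and 102 (1.26 ± 0.23, SE, adjusted p = 6.72e-04 in edgeR), with no overlap between groups.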
